A study of Mus musculus with 18 samples.

Results

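The genes described here are part of the antioxidant programme around the transcription factor NRF2 in mouse macrophages. They are 38 of the 18668 gene symbols in the expression table. They were listed by name, but with earlier results of these data known, so the list is not blind to the values. They fall into 8 roles, namely the NRF2 sensor system, glutathione synthesis and recycling, glutathione peroxidases, glutathione transferases, the thioredoxin and peroxiredoxin system, NADPH supply, superoxide and peroxide removal, and enzymes that act on quinones, carbonyls, epoxides and biliverdin. All 38 were present in the table and passed the filter on low values, which asked for at least 0.1 RPKM in at least 3 libraries. RPKM, reads per kilobase of transcript in a fixed number of mapped reads, correct for gene length and for depth.

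NRF2, encoded by Nfe2l2, is held at a low level in resting cells because KEAP1 marks it for degradation. When electrophiles or oxidants modify KEAP1, NRF2 builds up, enters the nucleus and binds antioxidant response elements (AREs) near genes that make glutathione, reduce thioredoxin and supply NADPH. In macrophages of the arterial wall, oxidized low-density lipoprotein (oxLDL) brings in oxidized lipids, and both NRF2 and its targets are long known as part of the response to that load.

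RNA was sequenced from bone marrow-derived macrophages (BMDM) of C57BL6 mice, grown in M-CSF for 7 days. The cells were Apoe-/- or Apoe-/-/Treml4-/- (DKO), so every group lacked Apoe, and cells with intact Apoe were not part of the comparison. Cells of each genotype were given PBS (untreated), 10 µg/ml oxLDL (oxLDL 10) or 60 µg/ml oxLDL (oxLDL 60) for 16 h per the series design, with 3 biological replicates in each of the 6 groups. The duration is stated differently in the study's methods, a treatment label mentions LPS, and neither point was resolved. The age of the mice and the number of mice behind a replicate are not given in the sources used here.

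The comparisons ask whether oxLDL changed the RNA of these genes in each genotype, and whether loss of TREML4, a receptor of myeloid cells, altered that change. Depth, recovered from the smallest steps in the table, was 39.7 to 54.2 M reads per library, so that 3 reads over 1 kb of transcript correspond to 0.0553 to 0.0755 RPKM. Treml4 was at 1.86 to 8.39 RPKM in the Apoe-/- libraries and at most 0.0116 RPKM in the DKO libraries, which matches the labels. All 9 macrophage markers were present, with a summed level of 5599 to 12037 RPKM, whereas the summed markers of lymphocytes, erythroid cells, mast cells and dendritic cells reached at most 0.317 RPKM. Neutrophil markers summed to 27.4 to 75.6 RPKM and fibroblast markers to 0.550 to 14.2 RPKM, and their part in the results was not tested. Replicate 2 of the Apoe-/- cells and replicate 3 of the DKO cells were Xist-positive at every treatment. DKO replicate 3 also stood apart, since it was the lowest of its 3 libraries at every treatment for 32.2% of the genes tested and for 14 of the 38 members.

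To show the sequence next to which NRF2 is known to act, promoter windows from RefSeq (GRCm38.p6, 250 bases before to 50 bases after the start of transcription) were searched for the ARE core letters TGACNNNGC on either strand. A window was found for 34 members, and none was listed for Gclc, Gsr, Gsta4 and Prdx6. The letters occurred in at least 1 window of 11 of these 34 genes (32.4%), against 14.0% of 27025 gene symbols and 12.4% of all 32851 windows. Of the 19 genes with a window that were called higher at oxLDL 60 in both genotypes, 8 held the letters (Gclm, Gsta3, Me1, Mgst1, Pgd, Prdx1, Srxn1 and Txnrd1), as did 3 of the other 15 (G6pdx, Nfe2l2 and Sod1). The 19 include Aox1, which held no match and reached the filter level only at oxLDL 60, so the filter decided its place among them. A match is a description of letters and not a site of binding, and the lack of a match says only that the letters are not in that window. The 4 matched genes with the largest changes at oxLDL 60 are shown by the 250 bases before their start, 5′ to 3′ on the plus strand, with the match in capitals. They lie at chr1:21240335-21240584 for Gsta3, chr2:152105274-152105523 for Srxn1, chr4:116685349-116685598 for Prdx1 and chr3:122245307-122245556 for Gclm.
Gsta3: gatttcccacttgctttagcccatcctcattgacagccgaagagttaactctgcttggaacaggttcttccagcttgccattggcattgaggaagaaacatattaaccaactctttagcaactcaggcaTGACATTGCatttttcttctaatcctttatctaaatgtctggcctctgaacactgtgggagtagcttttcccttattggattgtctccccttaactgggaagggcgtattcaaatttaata
Srxn1: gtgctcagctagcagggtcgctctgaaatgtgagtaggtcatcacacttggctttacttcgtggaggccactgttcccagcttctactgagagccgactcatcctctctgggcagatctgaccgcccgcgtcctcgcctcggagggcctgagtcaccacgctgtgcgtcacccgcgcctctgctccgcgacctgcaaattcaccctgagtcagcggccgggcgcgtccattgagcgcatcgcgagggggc
Prdx1: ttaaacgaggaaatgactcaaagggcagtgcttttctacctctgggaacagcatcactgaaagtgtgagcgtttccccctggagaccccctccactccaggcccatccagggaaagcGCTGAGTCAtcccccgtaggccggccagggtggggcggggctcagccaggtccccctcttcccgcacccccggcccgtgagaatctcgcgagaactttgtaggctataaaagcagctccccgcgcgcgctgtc
Gclm: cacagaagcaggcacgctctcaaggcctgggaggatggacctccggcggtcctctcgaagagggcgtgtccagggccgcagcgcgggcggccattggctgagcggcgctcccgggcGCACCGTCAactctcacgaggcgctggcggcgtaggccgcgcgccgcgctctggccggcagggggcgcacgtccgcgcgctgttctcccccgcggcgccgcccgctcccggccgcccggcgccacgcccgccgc
The match began 121 bases before the start in Gsta3, 133 bases before it in Prdx1 and 134 bases before it in Gclm. In Srxn1 the match, GCTAGGTCA, began at base 29 of the transcript, so no letters are in capitals above. The Gsta3 stretch was 42.0% G and C, against 63.2% for Srxn1, 61.6% for Prdx1 and 78.4% for Gclm.

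At oxLDL 60 most of the 38 listed members rose in both genotypes, while other genes of the pathway, given below, were called in either direction. A call required a limma p below 0.05 after Benjamini-Hochberg adjustment over 12838 genes, together with a fold of 1.4 or more in either direction (0.49 on the log2 scale). In Apoe-/- cells 26 of the 38 members were called higher and 0 lower, against 7.13% of all genes tested called higher and 6.78% called lower. In DKO cells 23 were called higher and 0 lower, against 4.87% and 7.31% of all genes. Both counts include Aox1, which reached the filter level only at oxLDL 60 and so had to differ, and without it they were 25 and 22 of 37. The 23 genes called in DKO cells were all among the 26 called in Apoe-/- cells, and these comparisons share no libraries. Median log2 fold changes of the members were 1.02 in Apoe-/- and 0.86 in DKO cells, against 0.06 and -0.06 for all genes tested. The 3 genes called in Apoe-/- cells alone were Gstp1, Mgst2 and Txn1, and the difference between genotypes was not called for any of them. The count held at 25 and 23 with the libraries rescaled by the median ratio, and at 25 and 24 without the 6 Xist-positive libraries.

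The levels show the same in single libraries. In 33 members every oxLDL 60 library of the Apoe-/- cells exceeded every untreated one, as 25.8% of all genes did, and in DKO cells this held for 32 members, against 14.3% of all genes. With libraries matched by replicate number, 32 members rose in all 6 pairs of libraries, against 19.0% of all genes. Without Aox1 these counts were 32, 31 and 31 of 37. Together the members took up 1.06% to 1.19% of the summed RPKM in untreated libraries, 1.27% to 1.42% at oxLDL 10 and 2.10% to 2.32% at oxLDL 60. The summed macrophage markers were 8414 to 11838 RPKM in untreated cells and 5599 to 8568 RPKM at oxLDL 60, but the 9 markers did not move together. Cd14, Lyz2 and Fcgr1 were called lower in both genotypes, Cd14 by -1.61 and -1.81, and Adgre1 in Apoe-/- cells alone, at -0.50 against -0.47 in DKO cells. Mertk was called higher, at 0.68 and 0.70, while Cd68 (0.42 and 0.29), Mrc1 (0.01 and 0.23), Csf1r (-0.34 and -0.37) and Itgam (-0.25 and -0.24) were not called. The part of these markers in the members' changes was not tested. In bulk RNA, a change in the number of cells of one type and in the RNA per cell cannot be told apart.

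**Figure D1:**
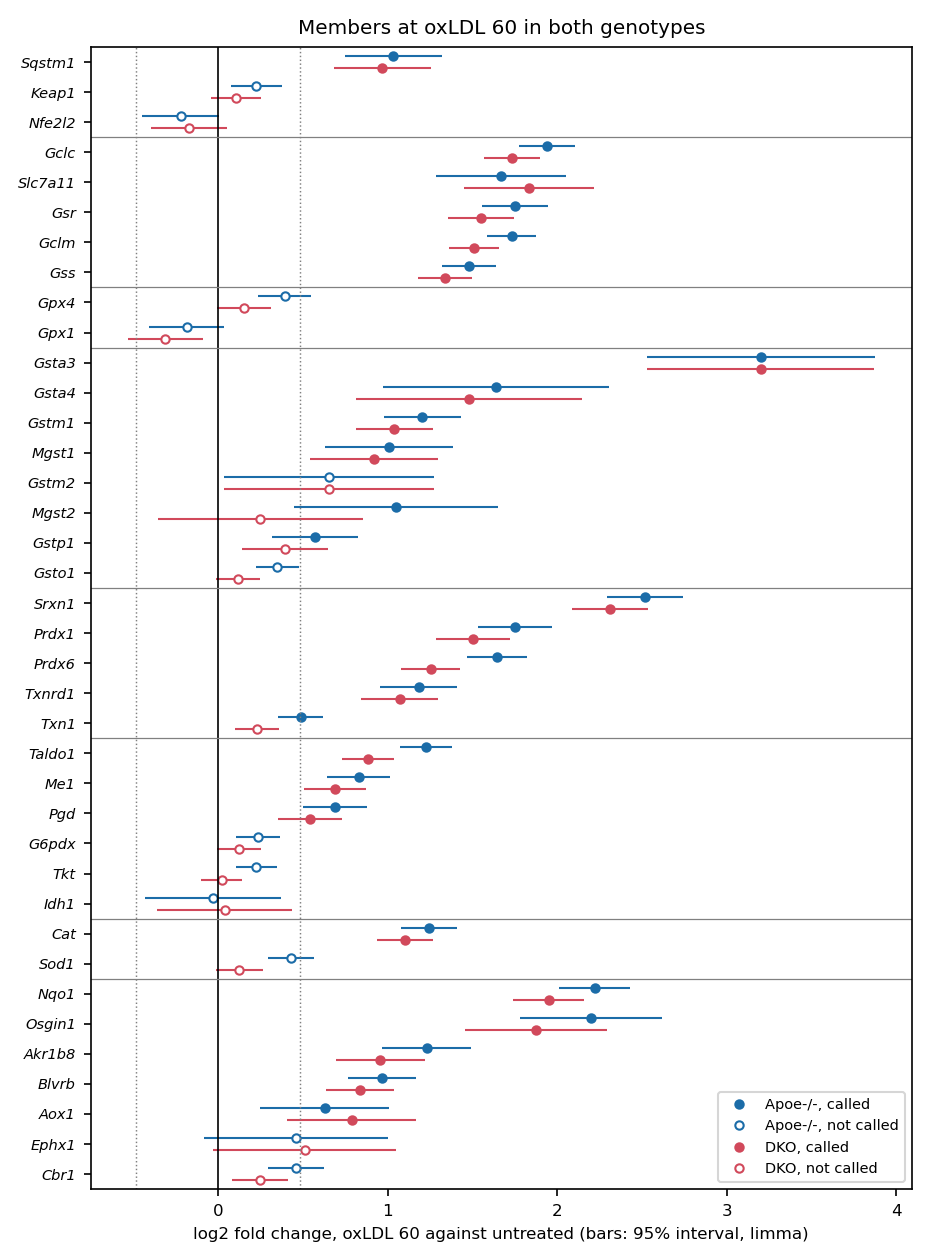
Log2 fold change of each of the 38 members at oxLDL 60 against untreated cells (x axis), in Apoe-/- (blue) and DKO (red) cells, grouped by role and within each role with the largest mean change first. Bars are 95% intervals from limma with 3 libraries in each group, filled points passed the call, and dotted lines mark a fold of 1.4 in either direction. Gsta3 lies farthest to the right at 3.20 in both genotypes, and Nfe2l2, Gpx1 and Idh1 lie between -0.31 and 0.04.

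Among the sensor and factor genes, only Sqstm1 was called. Nfe2l2 stood at 53.4, 75.1 and 65.8 RPKM in untreated Apoe-/- cells, 53.8, 66.1 and 50.6 at oxLDL 10 and 51.7, 60.5 and 53.1 at oxLDL 60. The DKO libraries held 54.7, 56.5 and 57.4 RPKM untreated, 47.9, 51.1 and 49.5 at oxLDL 10 and 51.8, 49.2 and 48.7 at oxLDL 60. The RNA of the factor itself was thus no higher with oxLDL. Its change at oxLDL 60 was -0.22 (SE 0.11) in Apoe-/- and -0.17 (SE 0.11) in DKO cells (limma adjusted p = 0.128 and 0.264). The 3 DKO libraries at oxLDL 60 all lay below the untreated ones, as in 28.3% of all genes. NRF2 protein, which KEAP1 controls, was not measured by this assay. Keap1 was at 15.3, 18.3 and 17.8 RPKM in untreated Apoe-/- cells, 17.6, 18.9 and 17.0 at oxLDL 10 and 20.3, 19.5 and 20.1 at oxLDL 60. In DKO libraries Keap1 was at 16.6, 17.2 and 19.0 RPKM untreated, 18.6, 17.2 and 18.3 at oxLDL 10 and 19.5, 18.4 and 18.9 at oxLDL 60. Its change at oxLDL 60 was 0.22 (SE 0.07) in Apoe-/- cells, past the limit on adjusted p (0.0226 by limma) but under the limit on the fold, and 0.11 (SE 0.07) in DKO cells. Sqstm1 encodes a receptor of selective autophagy that binds KEAP1. It measured 371, 428 and 376 RPKM in untreated Apoe-/- cells, 483, 449 and 409 at oxLDL 10 and 860.0, 724 and 825 at oxLDL 60. In DKO cells Sqstm1 measured 472, 471 and 383 RPKM untreated, 566, 556 and 414 at oxLDL 10 and 976, 927 and 707 at oxLDL 60. All oxLDL 60 libraries were above all others in both genotypes, with DKO replicate 3 the lowest of its group at each treatment, and the log2 fold changes were 1.03 (SE 0.14) and 0.97 (SE 0.14) (limma adjusted p = 1.70e-05 and 3.87e-05).

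All 5 genes of glutathione synthesis and recycling rose at oxLDL 60 in both genotypes, by log2 fold changes of 1.48 to 1.94 in Apoe-/- and 1.34 to 1.83 in DKO cells, with limma adjusted p of at most 2.17e-06 and 8.12e-07. Gclc, the catalytic subunit of glutamate-cysteine ligase, which sets the pace of glutathione synthesis, was at 16.4, 18.4 and 18.3 RPKM in untreated Apoe-/- cells, 28.8, 27.2 and 24.8 at oxLDL 10 and 68.2, 66.4 and 69.7 at oxLDL 60. In DKO cells Gclc was at 20.7, 19.1 and 18.2 RPKM untreated, 30.4, 30.5 and 26.9 at oxLDL 10 and 69.9, 64.9 and 58.7 at oxLDL 60. The 3 treatments did not overlap in either genotype, and at oxLDL 60 the fold change was 3.83 in Apoe-/- and 3.33 in DKO cells. Gsr, the glutathione reductase that spends NADPH to recycle oxidized glutathione, showed the same order, with 31.7, 32.2 and 33.1 RPKM in untreated Apoe-/- cells, 56.8, 47.5 and 52.0 at oxLDL 10 and 112, 102 and 112 at oxLDL 60. Its DKO levels were 37.5, 35.7 and 29.4 RPKM untreated, 58.4, 56.9 and 48.7 at oxLDL 10 and 108, 96.3 and 95.6 at oxLDL 60, and its log2 fold changes at oxLDL 60 were 1.75 (SE 0.09) and 1.55 (SE 0.09).

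Slc7a11, the cystine importer that feeds glutathione synthesis, differed in its dose pattern. It was at 4.07, 6.93 and 3.61 RPKM in untreated Apoe-/- cells, 4.67, 4.63 and 3.87 at oxLDL 10 and 15.3, 15.5 and 14.4 at oxLDL 60. The DKO levels of Slc7a11 were 4.07, 4.20 and 3.97 RPKM untreated, 4.51, 4.39 and 3.53 at oxLDL 10 and 16.3, 16.8 and 11.8 at oxLDL 60. Untreated and oxLDL 10 libraries overlapped, at log2 values of -0.09 (SE 0.18) and 0.01 (SE 0.18) for oxLDL 10 against untreated, whereas the oxLDL 60 libraries were all higher, by 1.67 (SE 0.18) and 1.83 (SE 0.18). Replicate 2 of the untreated Apoe-/- cells lay above the other untreated libraries. Gclm, the modifier subunit of the ligase whose promoter is shown above, rose by 1.73 and 1.51 on the log2 scale, and Gss, glutathione synthetase, by 1.48 and 1.34.

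**Figure D2:**
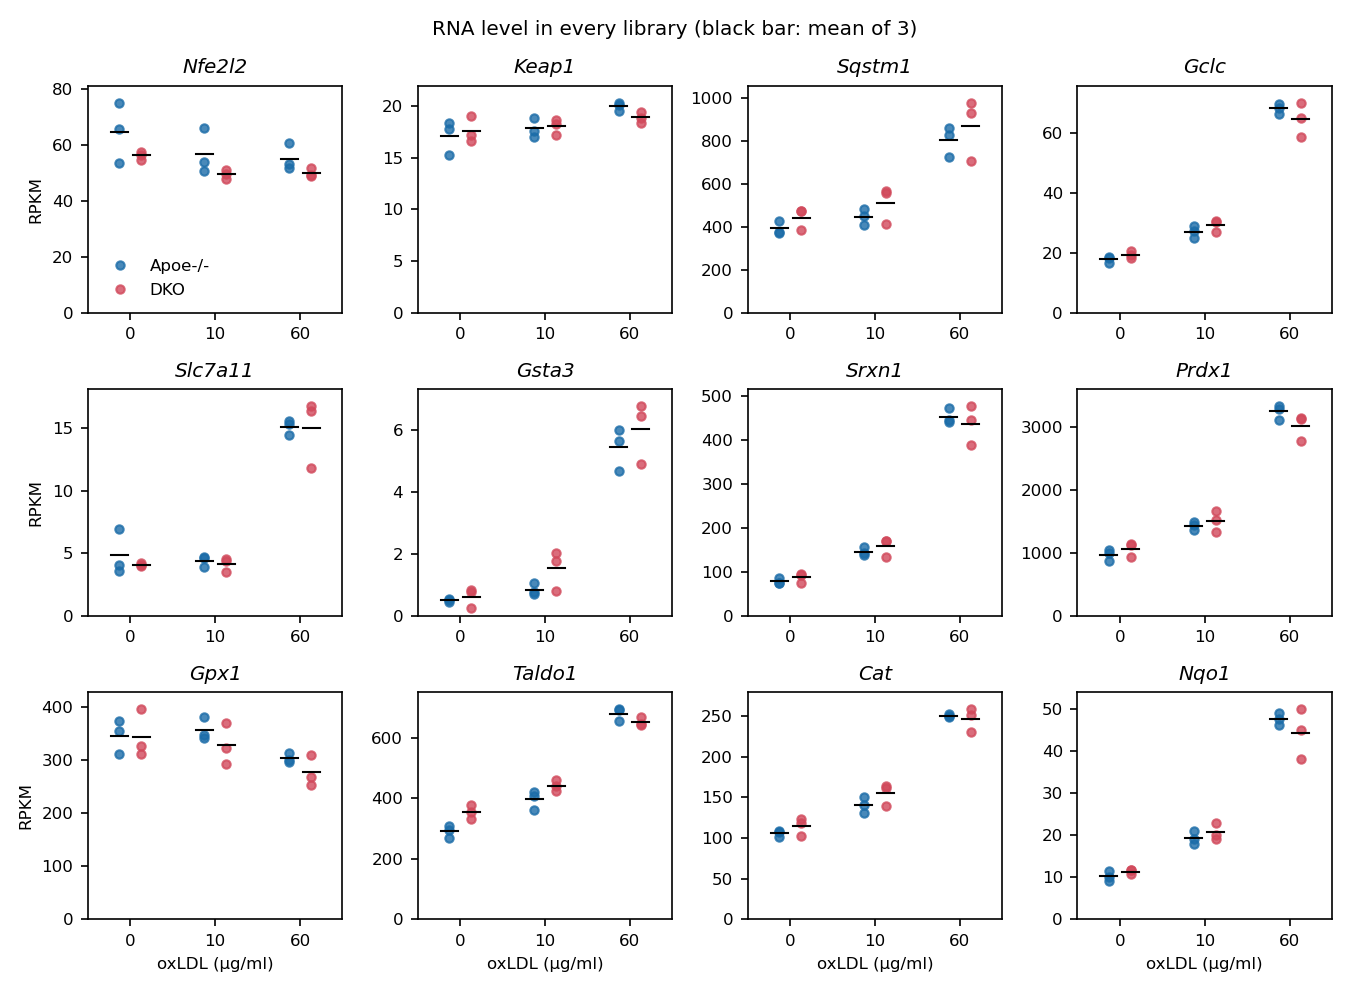
RNA level (RPKM, linear axes from 0) of 12 members in each of the 18 libraries by amount of oxLDL, with Apoe-/- cells in blue, DKO cells in red and a black bar at the mean of each group of 3. Gclc, Srxn1, Prdx1, Taldo1, Cat and Nqo1 step up at 10 and again at 60 µg/ml, Slc7a11 lies under 5 RPKM below 60 µg/ml apart from 1 untreated library at 6.93 RPKM, and Nfe2l2 and Gpx1 do not step up.

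The glutathione peroxidases, which use glutathione to reduce peroxides, were not called in either genotype. Gpx1, the abundant cytosolic enzyme, stood at 311, 354 and 373 RPKM in untreated Apoe-/- cells, 342, 382 and 348 at oxLDL 10 and 301, 314 and 297 at oxLDL 60. In DKO cells Gpx1 stood at 311, 326 and 396 RPKM untreated, 322, 292 and 369 at oxLDL 10 and 268, 253 and 309 at oxLDL 60. Its log2 fold changes at oxLDL 60 were -0.18 (SE 0.10) and -0.31 (SE 0.10) (limma adjusted p = 0.203 and 0.0363), the second being past the limit on adjusted p but not on the fold. The DKO libraries at oxLDL 60 were all below the untreated ones, as in 28.3% of all genes. Gpx4, which acts on lipid hydroperoxides in membranes, was at 111, 129.8 and 131 RPKM in untreated Apoe-/- cells, 146, 159 and 138 at oxLDL 10 and 162, 166 and 159 at oxLDL 60. Gpx4 in the DKO libraries was at 132, 143 and 123 RPKM untreated, 155, 149 and 137 at oxLDL 10 and 146, 149 and 147 at oxLDL 60, with less separation between treatments. Its changes at oxLDL 60, 0.39 (SE 0.07) and 0.15 (SE 0.07), were under the fold limit. The first was past the limit on adjusted p and the second was not (6.41e-04 and 0.153 by limma).

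Of the 8 glutathione transferases, which join glutathione to electrophiles, 6 were called higher in Apoe-/- and 4 in DKO cells at oxLDL 60, with 2 and 4 not called and 0 lower. Gsta3, an alpha-class transferase, showed the largest change of all 38 members, from a low level. It was at 0.554, 0.517 and 0.433 RPKM in untreated Apoe-/- cells, 1.05, 0.766 and 0.715 at oxLDL 10 and 5.99, 4.67 and 5.67 at oxLDL 60. The DKO levels were 0.821, 0.757 and 0.269 RPKM untreated, 2.02, 1.78 and 0.794 at oxLDL 10 and 6.78, 6.47 and 4.91 at oxLDL 60. Every oxLDL 60 library stood far above the rest, and DKO replicate 3 was the lowest at each treatment. The log2 fold change was 3.20 (SE 0.32) in Apoe-/- and 3.20 (SE 0.32) in DKO cells (limma adjusted p = 7.38e-07 and 8.12e-07), and is understated on the log2(RPKM + 0.1) scale, as for all low genes. Gsta4, which conjugates the lipid aldehyde hydroxynonenal, rested on an estimated 3 to 58 reads per library. Its levels were 0.0478, 0.169 and 0.0469 RPKM in untreated Apoe-/- cells, 0.117, 0.238 and 0.221 at oxLDL 10 and 0.790, 0.324 and 0.366 at oxLDL 60. In DKO cells they were 0.150, 0.170 and 0.151 RPKM untreated, 0.178, 0.152 and 0.123 at oxLDL 10 and 0.630, 0.957 and 0.377 at oxLDL 60. The rise was called in both genotypes at 1.64 (SE 0.32) and 1.48 (SE 0.32), but with a pseudocount of 1 the Apoe-/- change was 0.45 and no longer called.

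Gstm1, the main mu-class enzyme of these cells, was far more abundant. It measured 34.4, 36.5 and 34.7 RPKM in untreated Apoe-/- cells, 44.2, 42.4 and 37.4 at oxLDL 10 and 82.4, 78.7 and 82.5 at oxLDL 60. In DKO cells it measured 39.1, 40.5 and 32.8 RPKM untreated, 46.9, 49.7 and 38.8 at oxLDL 10 and 87.0, 79.3 and 65.5 at oxLDL 60, and the oxLDL 60 libraries of both genotypes lay above all others. Its log2 fold changes were 1.20 (SE 0.11) and 1.04 (SE 0.11). Mgst1, a membrane-bound transferase, rose by 1.01 and 0.92. Mgst2, a related enzyme of the endoplasmic reticulum, was called in Apoe-/- cells at 1.05 and not in DKO cells at 0.25. Gstp1, the pi-class enzyme, was called at 0.57 in Apoe-/- cells and not at 0.39 in DKO cells. Gsto1 (0.35 and 0.12) and Gstm2 (0.65 and 0.65) were not called. Gstp1 in DKO cells and Gsto1 in Apoe-/- cells were past the limit on adjusted p (0.0218 and 2.92e-04 by limma) but under the limit on the fold. With the replicate block, Gstm2 was called at 0.65 in both genotypes (limma adjusted p = 0.0257 and 0.0278). How reads shared between near-identical transferase genes were counted is not given in the sources used here, so the split between Gstm1 and Gstm2, and between Gstp1 and its neighbour Gstp2, is uncertain.

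The thioredoxin and peroxiredoxin system held the most abundant RNA of the 38 members. All 5 genes were called higher at oxLDL 60 in Apoe-/- cells and 4 in DKO cells, by 0.49 to 2.52 on the log2 scale in the first. Srxn1, sulfiredoxin, which restores overoxidized peroxiredoxins, was at 74.8, 86.3 and 75.8 RPKM in untreated Apoe-/- cells, 156, 143 and 138 at oxLDL 10 and 473, 439.7 and 445 at oxLDL 60. In DKO cells Srxn1 was at 95.2, 93.4 and 75.1 RPKM untreated, 169, 169 and 135 at oxLDL 10 and 477, 445 and 388 at oxLDL 60. The treatments were apart in every library, and the fold change at oxLDL 60 was 5.74 and 4.97, with log2 values of 2.52 (SE 0.11) and 2.31 (SE 0.11) (limma adjusted p = 7.43e-11 and 2.62e-10). Prdx1, a peroxidase that thioredoxin reduces, had the highest level of the 38 members. It stood at 868, 1037 and 991 RPKM in untreated Apoe-/- cells, 1492, 1440.4 and 1362 at oxLDL 10 and 3325, 3283 and 3107 at oxLDL 60. The DKO libraries held 1129.5, 1145 and 925 RPKM untreated, 1522, 1666 and 1331 at oxLDL 10 and 3126, 3136 and 2778 at oxLDL 60, so that Prdx1 rose by a fold of 3.36 in Apoe-/- and 2.83 in DKO cells. Prdx6, which draws on glutathione and also repairs membrane lipids, was at 24.2, 24.9 and 25.0 RPKM in untreated Apoe-/- cells, 40.2, 34.3 and 37.9 at oxLDL 10 and 79.2, 78.4 and 74.9 at oxLDL 60. In DKO cells it was at 28.4, 29.8 and 25.2 RPKM untreated, 42.3, 43.5 and 35.7 at oxLDL 10 and 71.9, 64.5 and 62.6 at oxLDL 60, with each treatment apart from the next. Its log2 fold changes were 1.65 (SE 0.08) and 1.25 (SE 0.08).

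Txnrd1, the reductase that passes electrons from NADPH to thioredoxin, rose by 1.18 (SE 0.11) and 1.07 (SE 0.11). Txn1, thioredoxin itself, was called at 0.49 (SE 0.06) in Apoe-/- cells and not in DKO cells at 0.23 (SE 0.06) (limma adjusted p = 0.0109), where the fold was under the limit. Summed over the 5 genes, the level went from 1335 to 1711 RPKM in untreated libraries to 3830 to 4567 RPKM at oxLDL 60. Prdx1 made up most of that sum in every library.

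The calls in NADPH supply were split. Of the 6 enzymes, Taldo1, Me1 and Pgd rose at oxLDL 60 in both genotypes, and G6pdx, Tkt and Idh1 were not called in either. Taldo1, transaldolase of the pentose phosphate pathway, measured 269.9, 307 and 296 RPKM in untreated Apoe-/- cells, 420.2, 407 and 362 at oxLDL 10 and 694, 690.3 and 655 at oxLDL 60. DKO libraries held 379, 354 and 330.1 RPKM untreated, 461, 439 and 424 at oxLDL 10 and 668, 643 and 646 at oxLDL 60. Groups of the same genotype did not overlap, and the log2 fold changes were 1.23 (SE 0.07) and 0.88 (SE 0.07) (limma adjusted p = 1.89e-09 and 8.14e-08). Pgd, which makes NADPH from phosphogluconate, was at 141, 164 and 163 RPKM in untreated Apoe-/- cells, 184, 177 and 172 at oxLDL 10 and 243, 239 and 271 at oxLDL 60. The DKO levels of Pgd were 159, 145 and 163 RPKM untreated, 176, 162 and 189 at oxLDL 10 and 247, 197 and 239 at oxLDL 60. It changed by 0.69 (SE 0.09) and 0.54 (SE 0.09) in the 2 genotypes, and without DKO oxLDL 60 replicate 1 the DKO change fell below the fold limit at 0.48. Me1, cytosolic malic enzyme, was at 4.02, 4.19 and 4.09 RPKM in untreated Apoe-/- cells, 4.67, 4.17 and 4.25 at oxLDL 10 and 7.80, 6.95 and 7.36 at oxLDL 60. Its DKO libraries were at 4.29, 3.82 and 4.74 RPKM untreated, 4.58, 4.07 and 4.70 at oxLDL 10 and 7.47, 6.34 and 7.06 at oxLDL 60, so that the rise appeared at the higher amount, by 0.83 (SE 0.09) and 0.69 (SE 0.09). G6pdx, which opens the oxidative branch, changed by 0.24 and 0.12. Tkt, transketolase, changed by 0.22 and 0.02, and Idh1, the cytosolic isocitrate dehydrogenase, by -0.03 and 0.04. In Apoe-/- cells G6pdx and Tkt were past the limit on adjusted p (0.00657 and 0.00645 by limma) but under the limit on the fold. In DKO cells they passed neither limit (limma adjusted p = 0.154 and 0.845).

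Of the enzymes that remove superoxide and hydrogen peroxide, catalase rose and cytosolic superoxide dismutase was not called. Cat stood at 101, 108 and 109 RPKM in untreated Apoe-/- cells, 150.1, 141 and 131 at oxLDL 10 and 249, 253 and 250.2 at oxLDL 60. In DKO cells Cat stood at 123, 119 and 103 RPKM untreated, 162, 163 and 139 at oxLDL 10 and 259, 251 and 231 at oxLDL 60, with each treatment apart from the next in both genotypes. Its log2 fold changes at oxLDL 60 were 1.24 (SE 0.08) and 1.10 (SE 0.08) (limma adjusted p = 3.81e-09 and 1.52e-08). Sod1 was at 266, 274 and 288 RPKM in untreated Apoe-/- cells, 346, 318 and 306 at oxLDL 10 and 400.2, 357 and 358 at oxLDL 60. Its DKO levels were 346, 332 and 331 RPKM untreated, 363, 331 and 349.6 at oxLDL 10 and 384, 359.5 and 358 at oxLDL 60. The untreated DKO libraries lay above the untreated Apoe-/- libraries, as in 18.3% of all genes, while at oxLDL 60 the genotypes overlapped. The changes of 0.43 (SE 0.06) and 0.13 (SE 0.06) stayed under the fold limit. The first was past the limit on adjusted p and the second was not (7.38e-05 and 0.175 by limma).

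Of the 7 enzymes and targets in the last role, 5 were called higher in both genotypes, namely Nqo1, Osgin1, Akr1b8, Blvrb and Aox1. Nqo1, the quinone reductase that is the classic readout of NRF2, was at 9.14, 11.3 and 10.0 RPKM in untreated Apoe-/- cells, 21.0, 17.9 and 19.0 at oxLDL 10 and 48.9, 46.1 and 47.5 at oxLDL 60. In DKO cells Nqo1 was at 11.6, 10.7 and 11.6 RPKM untreated, 19.9, 19.1 and 22.9 at oxLDL 10 and 44.9, 37.9 and 49.9 at oxLDL 60. No treatments overlapped, and the fold change at oxLDL 60 was 4.66 and 3.87, with log2 values of 2.22 (SE 0.10) and 1.95 (SE 0.10) (limma adjusted p = 1.23e-10 and 5.97e-10). Osgin1, an NRF2 target linked to oxidative stress and growth arrest, was lower in level and more scattered. It was at 2.78, 3.49 and 3.19 RPKM in untreated Apoe-/- cells, 5.81, 6.10 and 4.92 at oxLDL 10 and 14.2, 12.0 and 18.8 at oxLDL 60. In DKO cells it was at 3.64, 3.99 and 3.30 RPKM untreated, 6.77, 6.69 and 6.52 at oxLDL 10 and 19.6, 9.33 and 13.7 at oxLDL 60, and the oxLDL 60 libraries were spread more widely than those of Nqo1. Its changes were 2.20 (SE 0.20) and 1.87 (SE 0.20).

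Akr1b8, a reductase of lipid aldehydes, measured 32.7, 41.3 and 35.1 RPKM in untreated Apoe-/- cells, 54.1, 56.3 and 44.7 at oxLDL 10 and 80.5, 102 and 74.5 at oxLDL 60. In DKO cells Akr1b8 measured 49.3, 47.5 and 51.0 RPKM untreated, 64.5, 63.5 and 74.8 at oxLDL 10 and 93.3, 84.7 and 111 at oxLDL 60. The untreated and the oxLDL 10 libraries of DKO cells all lay above those of Apoe-/- cells, by 0.44 (SE 0.13) and 0.39 (SE 0.13) (limma adjusted p = 0.111 and 0.394). Such a separation was seen in 18.3% of all genes in untreated cells and in 8.98% at oxLDL 10. The rise of Akr1b8 at oxLDL 60 was 1.23 (SE 0.13) in Apoe-/- and 0.96 (SE 0.13) in DKO cells. Blvrb, a biliverdin reductase, rose by 0.97 and 0.84. Aox1, aldehyde oxidase, was at 0.0260 to 0.0808 RPKM in untreated and oxLDL 10 libraries and at 0.117 to 0.167 RPKM at oxLDL 60, with 10 to 65 estimated reads. It reached the filter level of 0.1 RPKM only in the 6 oxLDL 60 libraries, so it entered the test through the groups in which it was high, and its call is no evidence of a rise. Cbr1, carbonyl reductase, changed by 0.46 and 0.25, and Ephx1, the microsomal epoxide hydrolase, by 0.46 and 0.51, and neither was called. Cbr1 was past the limit on adjusted p in both genotypes (2.53e-04 and 0.0261 by limma) but under the limit on the fold. With the replicate block, Ephx1 was called in DKO cells at 0.51 (limma adjusted p = 2.53e-04).

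**Figure D3:**
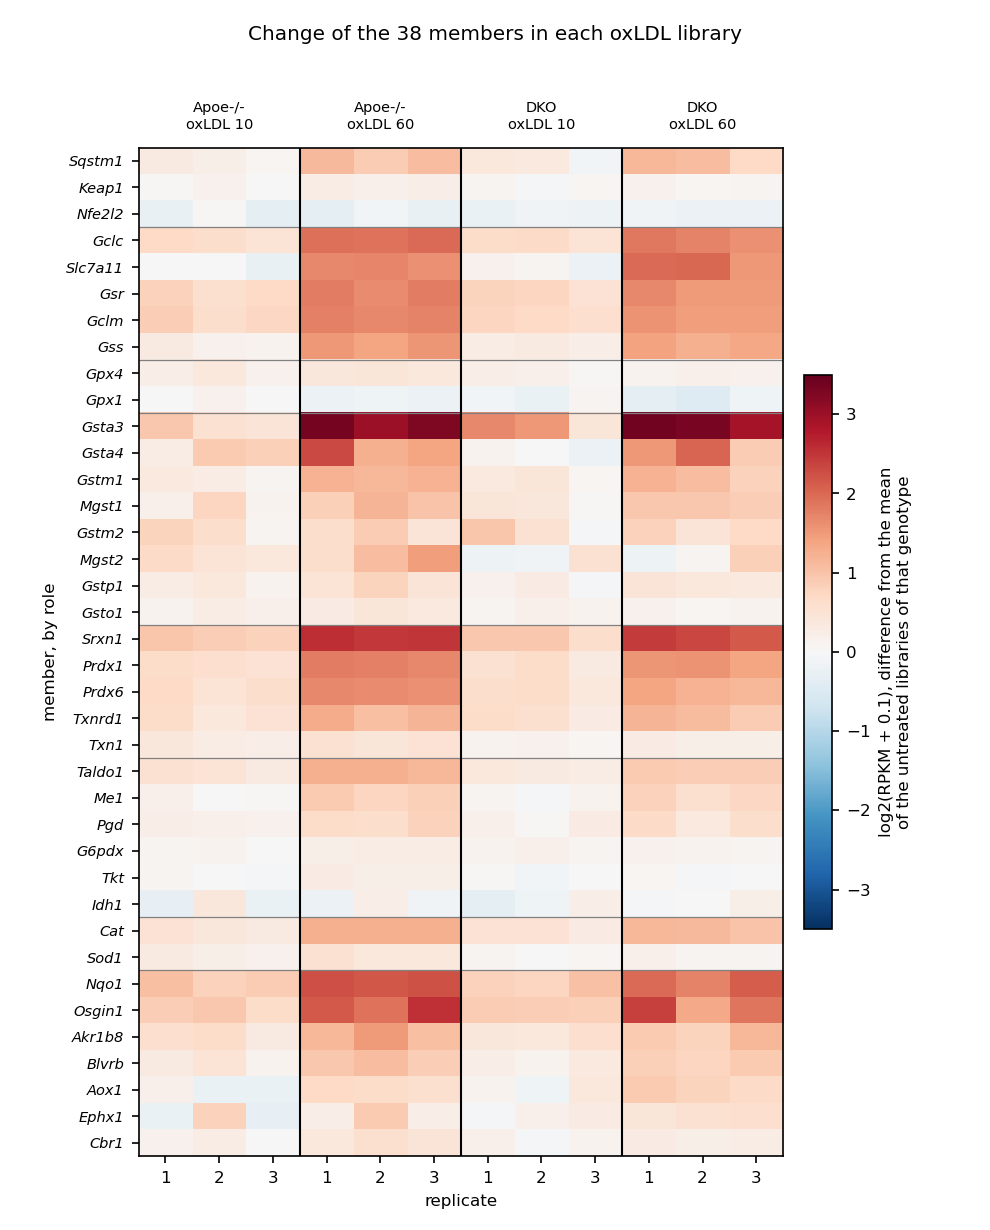
Change of each of the 38 members in the 12 oxLDL libraries, as the difference of log2(RPKM + 0.1) from the mean of the 3 untreated libraries of the same genotype (color, blue for lower and red for higher), with members grouped by role and columns by genotype, amount of oxLDL and replicate. The oxLDL 60 columns are red for most members, the oxLDL 10 columns are paler, and Nfe2l2 and Gpx1 are pale or blue.

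At the lower amount of oxLDL, the rise took in the core of the glutathione, thioredoxin and quinone genes. Tested against the same untreated libraries as oxLDL 60, 10 members were called higher and 0 lower at oxLDL 10 in Apoe-/- cells, against 0.748% of all genes called higher and 2.04% lower. In DKO cells 10 were called higher and 0 lower, against 0.569% and 1.69% of all genes. The 9 called in both genotypes were Gclc, Gclm, Gsr, Nqo1, Osgin1, Prdx1, Prdx6, Srxn1 and Txnrd1, while Akr1b8 was called in Apoe-/- and Gsta3 in DKO cells alone. Txnrd1 lay close to the fold limit, at 0.51 (SE 0.11) and 0.49 (SE 0.11), and its call with single libraries left out was not followed. After rescaling by the median ratio, 8 members were called higher in each genotype, beside 69 and 74 of all genes tested. Nqo1 had the largest rise in Apoe-/- cells, at 0.92 (SE 0.10), against 0.86 (SE 0.10) in DKO cells. Srxn1 rose by 0.88 (SE 0.11) and 0.84 (SE 0.11), and Osgin1 by 0.81 (SE 0.20) and 0.86 (SE 0.20). The glutathione genes Gclm, Gsr and Gclc rose by 0.60 to 0.73 in Apoe-/- and 0.60 to 0.68 in DKO cells, with limma adjusted p of at most 3.53e-04 and 4.14e-04. No gene of NADPH supply was called, although Taldo1 changed by 0.45 (SE 0.07) and 0.32 (SE 0.07) with limma adjusted p of 0.00118 and 0.0159, under the fold limit. Gsta3 in DKO cells changed by 1.21 (SE 0.32) (limma adjusted p = 0.0414), but its libraries overlapped, and the call was lost, at 0.78 to 1.06, without untreated replicate 3, oxLDL 10 replicate 1 or oxLDL 10 replicate 2. With the replicate block, Gsta3 was also called in Apoe-/- cells at 0.64 (limma adjusted p = 0.00708). Leaving out single libraries moved the count in DKO cells to as few as 5, reached without untreated replicate 3 or without oxLDL 10 replicate 2. Without the first of these Prdx1 was at 0.40 and Prdx6 at 0.47, and without the second they were at 0.42 and 0.48, below the fold limit. The call of Osgin1 was lost in Apoe-/- cells, at 0.73 to 0.79, without untreated replicate 1, oxLDL 10 replicate 1 or oxLDL 10 replicate 2. In DKO cells it was lost, at 0.79 to 0.86, without untreated replicate 1, untreated replicate 3, oxLDL 10 replicate 1 or oxLDL 10 replicate 2. That of Akr1b8 in Apoe-/- cells was lost, at 0.43 to 0.48, without untreated replicate 1, untreated replicate 3, oxLDL 10 replicate 1 or oxLDL 10 replicate 2.

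Between the amounts, oxLDL 60 against oxLDL 10 gave 22 members called higher and 0 lower in Apoe-/- cells, against 2.91% and 3.54% of all genes. In DKO cells it gave 22 higher and 0 lower, against 1.92% and 3.74% of all genes, of which 21 genes were called in both genotypes. Without Aox1, whose step the filter likewise decided, 21 of 37 members were called in each genotype and 20 in both. Among all genes called in DKO cells, 33.9% were higher, and 50.1% after rescaling by the median ratio, while all 22 members called stayed higher. These comparisons share libraries with those against untreated cells. The largest step was that of Gsta3, at 2.56 (SE 0.32) and 1.99 (SE 0.32). Slc7a11 followed, at 1.76 (SE 0.18) and 1.82 (SE 0.18). Srxn1 rose by 1.64 (SE 0.11) and 1.47 (SE 0.11) and Gclc by 1.34 (SE 0.08) and 1.14 (SE 0.08) from the lower to the higher amount. Gsta4 was called in DKO cells, at 1.52 (SE 0.32), and in Apoe-/- cells only with the replicate block, at 0.97 (limma adjusted p = 0.0266). The call of Pgd in Apoe-/- cells was lost without oxLDL 10 replicate 3 (0.48) or oxLDL 60 replicate 3 (0.44), and that of Akr1b8 in DKO cells, at 0.40 to 0.47, without oxLDL 10 replicate 1, oxLDL 10 replicate 2 or oxLDL 60 replicate 3. In 14 members, namely Gclc, Gclm, Gss, Gsr, Nqo1, Txnrd1, Txn1, Prdx1, Prdx6, Srxn1, Taldo1, Cat, Osgin1 and Akr1b8, the 3 treatments followed each other in rising order without overlap in both genotypes, as they did in 1.85% of all genes.

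No member passed the call between DKO and Apoe-/- cells at any treatment. In untreated cells 0 of 38 members were called between DKO and Apoe-/- cells, against 0.210% of all genes, and 7 had an unadjusted p under 0.05, against 17.3% of all genes. At oxLDL 10 the count was 0, against 0.0857% of all genes, with 4 members under an unadjusted p of 0.05, as were 9.75% of all genes. At oxLDL 60 it was 0 as well, against 0.125% of all genes, again with 4 members under an unadjusted p of 0.05, as were 7.88% of all genes. Medians of the members were 0.11, 0.07 and -0.09 on the log2 scale at the 3 treatments, beside 0.09, 0.05 and -0.02 for all genes tested. Above 0 were 27, 24 and 6 of the 38 members, against 74.6%, 66.2% and 41.8% of all genes. At oxLDL 60 the members thus leaned lower in DKO cells more often than all genes did. All DKO libraries were below all Apoe-/- libraries there in 7 members, against 12.0% of all genes. After rescaling by the median ratio, the medians at oxLDL 60 were -0.07 for the members and -0.002 for all genes. Without rescaling, the 95% intervals of the differences had half-widths of 0.12 to 0.67, with a median of 0.21. They lay wholly within a fold of 1.4 in either direction for 29, 28 and 30 of the 38 members. For the other members, which include the low transferase genes, a difference of that size was not detectable or could not be bounded at this spread. The intervals come from the fit without the replicate block, which took all 18 libraries as independent. Libraries with the same replicate number correlated within a genotype, so the intervals may be too narrow.

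The smallest unadjusted p at oxLDL 60 was that of G6pdx. It measured 74.0, 89.2 and 84.0 RPKM in untreated Apoe-/- cells, 88.0, 89.2 and 82.8 at oxLDL 10 and 94.1, 97.8 and 98.3 at oxLDL 60. In DKO cells G6pdx measured 72.9, 72.9 and 73.8 RPKM untreated, 79.1, 83.5 and 78.6 at oxLDL 10 and 81.8, 79.5 and 77.8 at oxLDL 60. All DKO libraries at oxLDL 60 were below all Apoe-/- libraries, as in 12.0% of all genes. The difference was -0.28 (SE 0.06), with an interval of -0.41 to -0.15 (limma adjusted p = 0.138). Prdx6 followed at -0.23 (SE 0.08), with an interval of -0.40 to -0.05 (limma adjusted p = 0.54). Cbr1 was at 12.5, 13.5 and 14.2 RPKM in untreated Apoe-/- cells, 14.9, 15.9 and 13.4 at oxLDL 10 and 17.4, 19.7 and 18.2 at oxLDL 60. In DKO cells Cbr1 was at 13.5, 12.9 and 14.4 RPKM untreated, 15.4, 13.1 and 14.7 at oxLDL 10 and 16.5, 15.5 and 16.4 at oxLDL 60, a difference at oxLDL 60 of -0.19 (SE 0.08) with an interval of -0.36 to -0.03 (limma adjusted p = 0.586). None of these passed. In untreated cells the smallest p belonged to Sod1, higher in DKO cells by 0.29 (SE 0.06) (limma adjusted p = 0.0674).

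Without the 6 Xist-positive libraries, 3 members were called between genotypes in untreated cells, where 2.43% of all genes then were. These were Akr1b8 at 0.51 (limma adjusted p = 0.00872), Gsta3 at 0.59 (limma adjusted p = 0.0487) and Idh1 at -0.49 (limma adjusted p = 0.0265). At oxLDL 10 only Gsta3 was called, at 1.04 (limma adjusted p = 0.00594), where 0.849% of all genes were, and at oxLDL 60 0 members. Each group then had 2 libraries. Among all genes called in untreated cells with every library, 81.5% were higher in DKO cells, and 60.9% after rescaling by the median ratio.

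**Figure D4:**
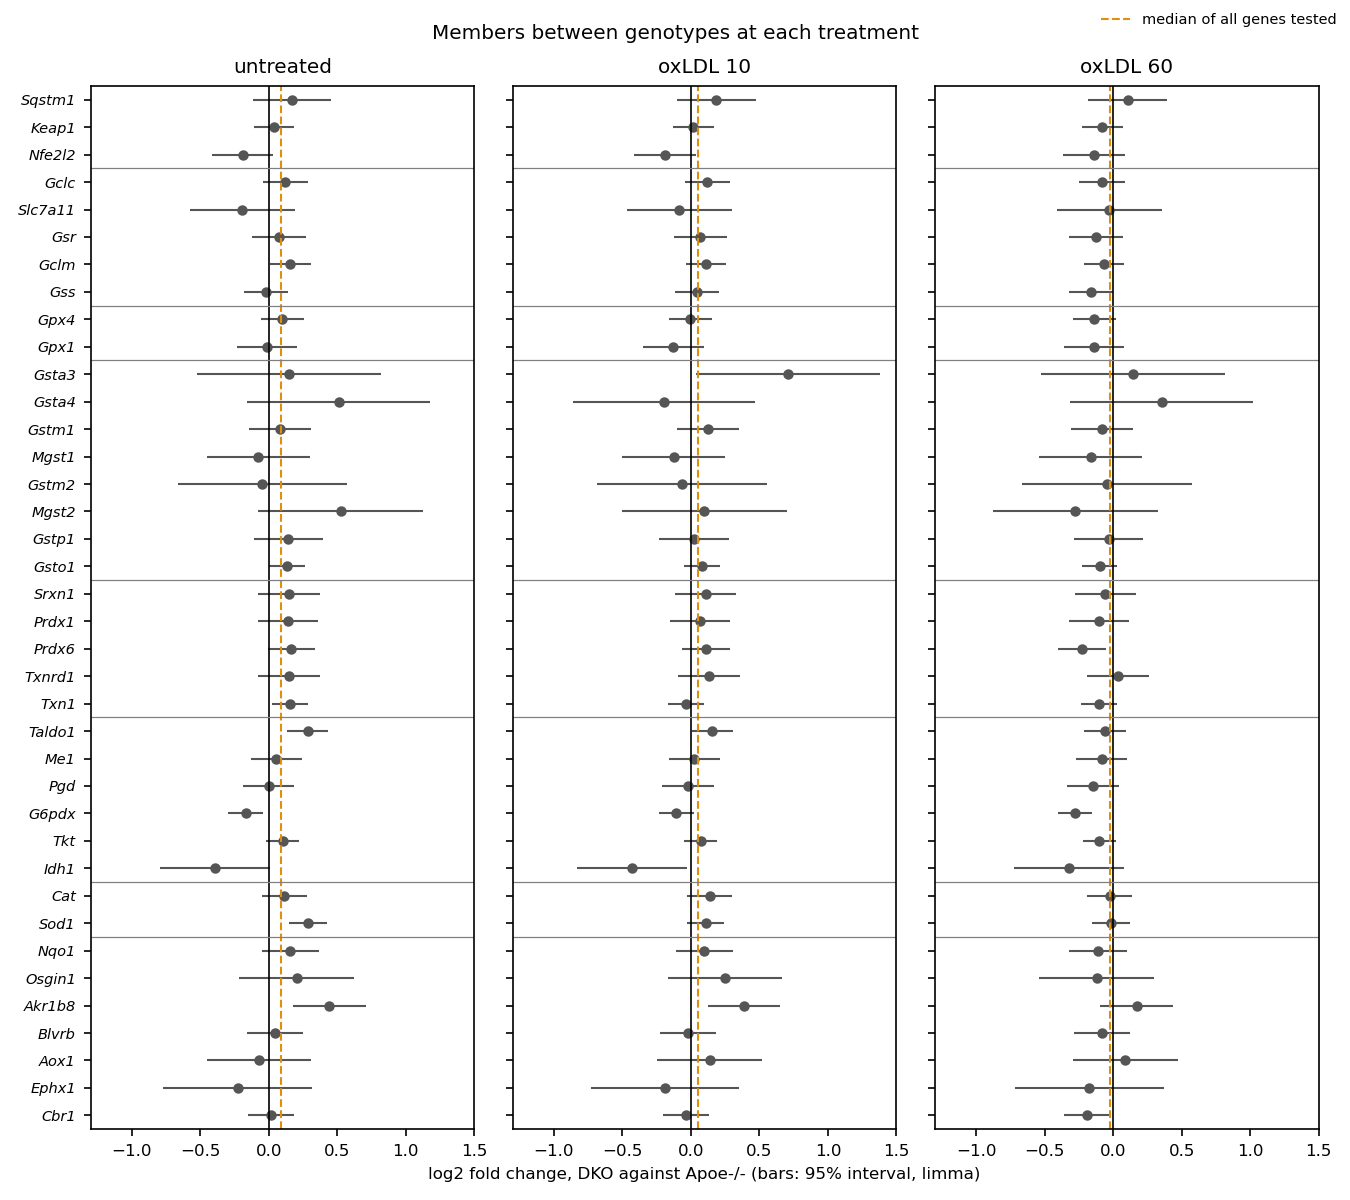
Log2 fold change of DKO against Apoe-/- cells for each of the 38 members, untreated (left), at oxLDL 10 (middle) and at oxLDL 60 (right), with 95% intervals from limma and 3 libraries in each group. The dashed line is the median of all 12838 genes tested, and no member passed the call at any treatment.

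The interaction asks whether the change with oxLDL differed between genotypes. For oxLDL 60, 0 of 38 members were called, against 0.0156% of all genes. Of the 38, 8 had an unadjusted p under 0.05, against 9.78% of all genes. With the replicate block 0 members were called, against 0.0389% of all genes. There 16 of the 38 had an unadjusted p under 0.05, against 17.0% of all genes. In both fits this was a larger share of the members than of all genes. For oxLDL 10, 0 were called, against 0% of all genes, with 1 member at an unadjusted p under 0.05, as were 1.92% of all genes. At oxLDL 60 the difference was above 0 in 6 of 38 members, against 21.9% of all genes. In the other 32 it was below 0, a smaller rise or a larger fall in DKO cells, so most genes of the table leaned the same way. The median of the members was -0.16, while the median of all genes was -0.11. Rescaling by the median ratio moved these medians to -0.05 and 0.01. Taldo1, Prdx6 and Sod1 had the smallest p. The difference was -0.34 (SE 0.10) for Taldo1 with an interval of -0.56 to -0.13, -0.39 (SE 0.12) for Prdx6 with an interval of -0.64 to -0.15, and -0.30 (SE 0.09) for Sod1 with an interval of -0.50 to -0.11, each at a limma adjusted p of 0.507. For Taldo1 and Sod1 the values above show that the untreated DKO libraries were higher than the untreated Apoe-/- libraries, as in 18.3% of all genes. Their levels at oxLDL 60 were close or overlapped.

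Other genes of the same pathway, taken from a list of 80 that are not members, held genes called in either direction. Of the 73 tested, 18 were called higher and 7 lower at oxLDL 60 in Apoe-/- cells, and 11 higher and 7 lower in DKO cells, with medians of 0.24 and 0.02. The higher calls were 24.7% and 15.1% of the list, against 7.13% and 4.87% of all genes, and the lower calls were 9.59% of it in each genotype, close to the 6.78% and 7.31% of all genes. In both genotypes, 11 were called higher and 7 lower. Hmox1, heme oxygenase, an NRF2 target that breaks down heme, rose from 523 ± 55.5 to 2504 ± 347 RPKM (SD, n = 3) in Apoe-/- cells and from 562 ± 55.0 to 2481 ± 402 RPKM in DKO cells. Cbr3, a carbonyl reductase, rose by 2.09 and 1.84 on the log2 scale, Chac1, which degrades glutathione, by 1.93 in both, and Ptgr1, which reduces lipid enones, by 1.42 and 1.29. Sod2, the mitochondrial superoxide dismutase, fell from 95.2 ± 18.8 to 30.5 ± 2.55 RPKM in Apoe-/- cells and from 84.7 ± 17.1 to 29.0 ± 1.75 RPKM in DKO cells. Gstt1, a theta-class transferase, changed by -1.61 and -1.28, Glrx, glutaredoxin, by -1.27 and -1.44, and Sesn1, a stress-induced sestrin, by -1.16 and -0.98, all called lower. Among enzymes of like reactions, Gstm1 was thus higher and Gstt1 lower, and Sod2 was lower where Sod1 was not called. Nnt, the mitochondrial transhydrogenase that makes NADPH, was the 1 listed gene called between genotypes, at 5.99 to 7.17 RPKM in Apoe-/- and 10.3 to 12.4 RPKM in DKO libraries, with differences of 0.82, 0.82 and 0.78 at the 3 treatments (limma adjusted p of at most 9.50e-06). The paper obtained the Apoe-/- and the Treml4-/- mice from different sources. Other differences between the mouse lines cannot be told apart from loss of TREML4 in this design. The cause of the Nnt difference was not tested.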

How the data were processed

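RNA of 18 libraries was analysed, 3 in each of 6 groups, as grouped and numbered in the labels. The authors deposited 1 table of RPKM values per gene symbol, in which 4 entries with repeated symbols were kept apart. The submitters' processing notes name STAR and the mm10 build, and the annotation is not given in the sources used here. RPKM are not counts, so a count test was not used, and reads taken up by a few abundant RNAs lower every other value of a library. Depth was recovered from the smallest steps of low RPKM values: 91.4% of the 14567 such values came out whole to within 0.05 of a read, where chance gives 10%. Gene lengths came from GENCODE M21, and limits from reads cover counting error only.

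Values were taken as log2(RPKM + 0.1), and 12838 genes, those reaching 0.1 RPKM in 3 or more libraries, entered the test. The groups were fitted together by limma (3.58.1, under R 4.3.3), using lmFit and a trended eBayes. Benjamini-Hochberg adjustment was made separately for the 11 comparisons. The steps were tested on simulated data. Plots and summaries used Python 3.11.15 with pandas 2.3.3, numpy 2.4.6 and matplotlib 3.10.9. The members and lists were chosen with earlier results of these data known.

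Values in every library are given for Nfe2l2, Keap1 and, in each role, up to 3 members with the largest mean change at oxLDL 60, and for the 3 with the smallest p between genotypes and for the interaction. Promoters are shown for up to 4 members with a match that were called higher in both genotypes. Within a genotype, the deviations from the group means of all 18 pairs of libraries with the same replicate number correlated across genes (0.18 to 0.69), against a median of -0.35 for other numbers, so a number was taken to mark 1 animal within a genotype but not between genotypes, where the median was -0.17. The replicate block was an alternative, as were other pseudocounts, filters, scalings, sets of libraries and terms. The p-values set each difference against the spread between these replicates, which in the main fit took no account of the animal. With the replicate block, changes with oxLDL and interactions were set against the spread left within animals.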

Additional observations from a re-analysis of the deposited data

How the results depend on the processing

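With 3 libraries in a group, calls at oxLDL 10 and between genotypes rest on few values, and the depth limits only the lowest members (Aox1, Gsta4 and Gstm2). Alternatives were other pseudocounts (0.01 and 1), no filter or a filter at 1 RPKM, rescaling by the median ratio, the replicate block, a fit on the compared groups alone, no fold limit, eBayes without a trend, a term for Xist-positive libraries, and leaving libraries out. Counts of members called stayed within 1.5 times in every alternative that keeps all libraries or drops the Xist-positive ones, except between genotypes without the Xist-positive libraries, where 3 members were called in untreated cells and 1 at oxLDL 10, against 0 and 0. Leaving out 1 library gave 24 to 27 members at oxLDL 60 in Apoe-/- and 22 to 23 in DKO cells, 7 to 11 and 5 to 11 at oxLDL 10, 19 to 23 and 20 to 21 for oxLDL 60 against oxLDL 10, and 0 for every comparison between genotypes and both interactions. With the replicate block, which pairs the libraries of 1 animal, 27 and 25 members were called at oxLDL 60, 11 and 10 at oxLDL 10, 23 and 22 between the amounts, and 0 between genotypes and for the interactions, and apart from the calls of Gstm2, Ephx1, Gsta3 and Gsta4 given above it changed no call, although at oxLDL 60 it raised the members with an unadjusted p under 0.05 for the interaction from 8 to 16. Of the named changes none turned in sign, and the median for the interaction at oxLDL 10 turned to 0.0108 after rescaling, from -0.03, and ran from -0.0800 to 0.0149 with 1 library left out, being above 0 without Apoe-/- untreated replicate 1. At oxLDL 10 the call of Osgin1 was lost without the Xist-positive libraries in both genotypes and without a filter in DKO cells, that of Gsta3 in DKO cells without a filter, in the fit on the compared groups alone and without a trend, that of Prdx1 in DKO cells without a filter, after rescaling and in the fit on the compared groups alone, and that of Akr1b8 in Apoe-/- cells in the last 2 of these. For oxLDL 60 against oxLDL 10, that of Akr1b8 in DKO cells was lost without the Xist-positive libraries. With a longer or looser motif, 8.82% or 58.8% of members had a match, against 32.4%, and 3.45% and 45.0% of all symbols. Leaving out Aox1, chosen after seeing the data, lowered each count at oxLDL 60 by 1 and changed no count at oxLDL 10 or between genotypes. The cause of these changes was not tested.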
